A study of Mus musculus with 2 samples.

Results

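Cells take up amino acids through several families of membrane carriers, and this report follows 58 genes of the Slc1a, Slc3a, Slc6a, Slc7a, Slc36a, Slc38a and Slc43a families in sorted nuclei of mouse thick ascending limb (TAL), the nephron segment that reabsorbs salt through NKCC2 (Slc12a1). The members were chosen by symbol, without the taurine transporter Slc6a6 and the betaine transporter Slc6a12, and by a minimum of 10 counts over both filtered matrices. Of 32227 genes in the files, 61 symbols matched and 58 reached the minimum. Just inside it lay Slc1a6 with 10 counts and Slc36a2 and Slc6a2 with 11 each, and just outside it Slc6a21 with 5, Slc38a5 with 2 and Slc7a10 with 1. By family there were 7 Slc1a, 2 Slc3a, 18 Slc6a, 14 Slc7a, 4 Slc36a, 10 Slc38a and 3 Slc43a genes.

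The data were 2 single-nucleus libraries, 1 from the superficial cortex and 1 from the rest of the kidney, called medulla. Both came from male mice on the B6 background, labelled WT for genotype and 12 for age with no unit, that carried a tamoxifen-inducible Cre under NKCC2 control and the INTACT nuclear tag (SUN1 fused to sfGFP), and both groups had received tamoxifen. GFP-positive nuclei were sorted, and the deep cortex belongs to the medulla library by the way the kidneys were cut. The number of mice behind each library was not given in the sources used here. With 1 library per region no test was possible, and all intervals are 95% intervals that cover counting error only.

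In the kidney, filtered amino acids are recovered almost wholly by the proximal tubule, where apical carriers bring them into the cell and basolateral exchangers pass them to the blood. Several light chains of the Slc7 family reach the membrane only when bound to a heavy chain, Slc3a1 (rBAT) or Slc3a2 (4F2hc). Most other cells express a smaller set of carriers that feed protein synthesis, glutathione synthesis and energy metabolism.

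Nuclei with at least 10 Slc12a1 counts were taken as TAL and split by genes that are no members: macula densa (MD) by Nos1 + Pappa2 of at least 3 counts, otherwise TAL-β by Tmem52b of at least 2, otherwise TAL-γ by Tmem207 + Gpc5 of at least 2, otherwise TAL-α. This gave 2709 TAL-α, 1326 TAL-β, 232 TAL-γ and 594 MD nuclei in cortex, and 3618, 542, 3327 and 73 in medulla. Barcodes with Lrp2 + Cubn of at least 5 counts and Slc12a1 of at most 2 were taken as proximal, 68 in cortex and 94 in medulla, although the sort should have removed them. Median counts per nucleus lay between 1836.5 and 2769 in the TAL classes and at 3711 and 4623 in the proximal barcodes. The libraries shared 0 barcodes.

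Genes that the rule did not use were checked next. Cldn16 and Kcnj10 were high in TAL-β (198 and 153 CPM in cortex, 258 and 176 CPM in medulla) and Ptgs2 was high in MD (98.9 and 136 CPM, at most 4.38 CPM in any other TAL class). Kcnj10 was high in medullary TAL-γ (111 CPM) with Cldn16 low (53.6 CPM). TAL-α was named by exclusion, and no Cldn10, Cldn16 or Kcnj10 level of it is given here. The cortical nuclei of the TAL-γ gate went against that name, with 156 CPM of Cldn16 beside 146 CPM of Kcnj10, and are called gate γ here. They are part of cortical TAL where TAL is taken as a whole, as in the comparison with proximal barcodes. No comparison between TAL classes or regions uses them.

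Proximal transcripts were present in TAL nuclei. Across 12 proximal marker genes that are no members, the TAL level was a median of 20.1% of the proximal level in cortex (16.5% to 24.0%) and 5.10% in medulla (3.02% to 7.97%). They were concentrated in few nuclei: 84.3% of cortical and 96.2% of medullary TAL nuclei held 0 counts of Lrp2 + Cubn, and the others were deeper (median 5086 against 2274 counts in cortex, 3298 against 2395 in medulla). Selected results below are therefore also given for TAL nuclei with 0 Lrp2 + Cubn counts, an alternative added after the data were seen. Free RNA was measured in 430749 cortical and 434424 medullary empty barcodes. If all proximal marker counts in TAL nuclei came from it, it would make up 69.0% of the counts in TAL-α, 85.9% in TAL-β and 50.9% in MD of cortex, and 44.5%, 75.1% and 38.5% in medulla. The empty barcodes also held TAL-side members, such as Slc1a5 with 168 and 191 CPM, so levels and shares of nuclei include free RNA of unknown amount. The source of the proximal transcripts was not tested further.

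**Figure D1:**
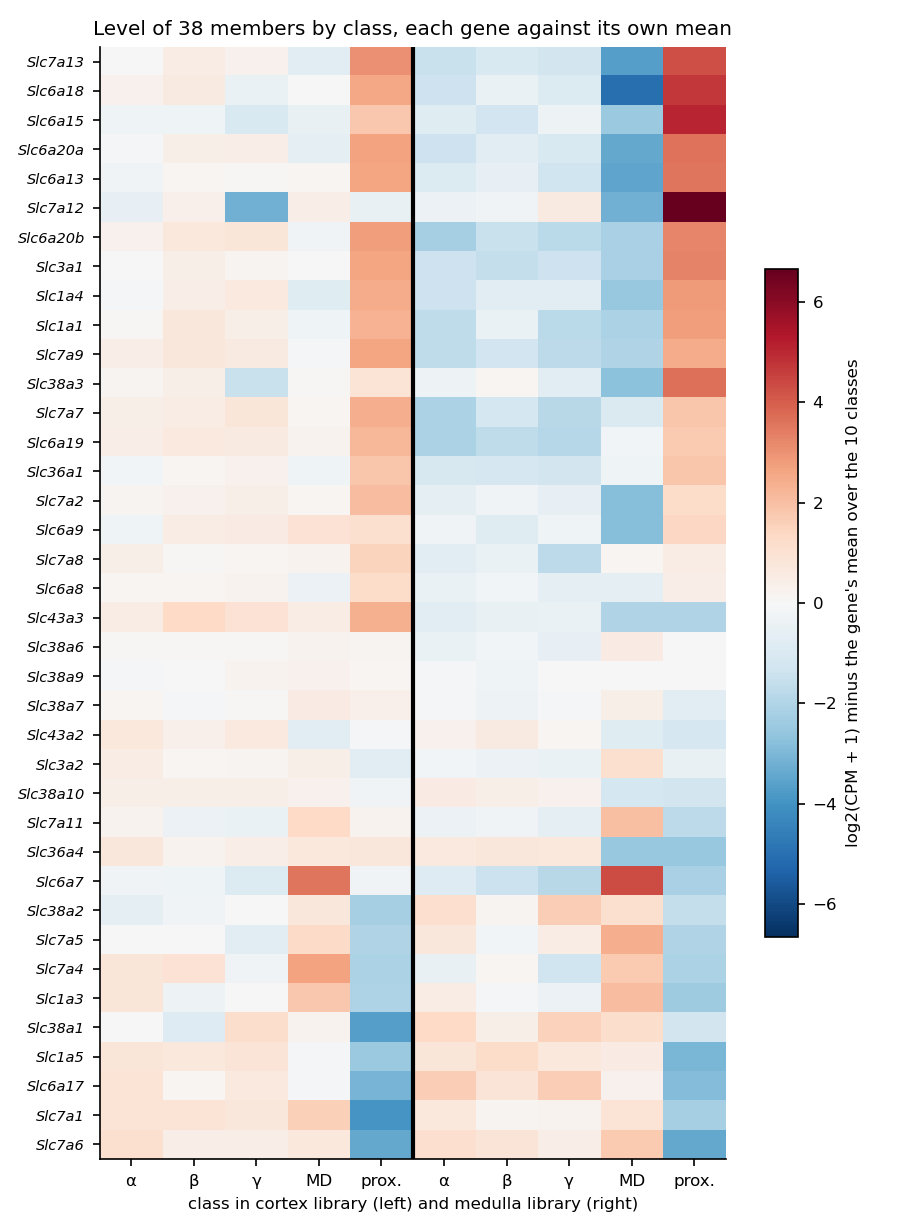
Level of the 38 members with at least 100 counts over the TAL classes, in the 5 classes of each library. Colour is log2(CPM + 1) minus the gene's own mean over the 10 classes, so that levels can be read along a row and not between genes. Rows are ordered by the TAL level relative to the proximal level, from proximal-side members at the top to TAL-side members at the bottom.

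TAL and proximal nuclei differed most in these families. A gene was called where the ratio of CPM was at least 2 in either direction and both groups together held at least 20 counts. In cortex 8 of 47 members tested were higher and 19 lower in TAL than in proximal barcodes, against 13.6% and 16% of all 15079 genes tested (29.6% in either direction), and in medulla 10 of 45 were higher and 22 lower, against 16.3% and 17.3% (33.6% in either direction). The median log2 ratio was -0.24 over members and 0.00 over all genes in cortex, and -0.999 and 0.00 in medulla. In these medians a gene with 0 counts in 1 group had a ratio of 1 wherever its bound did not pass 1. Over the 1648 cortical and 2007 medullary genes used to find the median gene, the median log2 ratio was -0.31 and -0.35. The cortical median over members is therefore not read as a lean to the proximal side. Of the members, 17 were lower and 6 higher in TAL in both libraries. The share of all genes called in both libraries is not given here, so no excess is read from these counts. Scaling by the median gene in place of the total count would shift every TAL to proximal log2 ratio by 0.31 in cortex and 0.35 in medulla towards TAL.

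The set of 14 members known from proximal absorption lay on the proximal side. Of these, 12 of 14 were lower in TAL in cortex and 14 of 14 in medulla. The set was written down as known proximal transporters with earlier results of these data in view, so its direction is not independent evidence. The promoter of Slc3a1 is shown because this heavy chain defines the apical cystine and dibasic amino acid system b0,+ of the proximal cell. It lies at chr17:85028097-85028346 on the plus strand of GRCm38.p6 in RefSeq, the 250 bases before the gene's start, and capitals mark the 1 match to the HNF4 site letters CAAAGTCCA, searched on both strands in windows of 300 bases.

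Slc3a1: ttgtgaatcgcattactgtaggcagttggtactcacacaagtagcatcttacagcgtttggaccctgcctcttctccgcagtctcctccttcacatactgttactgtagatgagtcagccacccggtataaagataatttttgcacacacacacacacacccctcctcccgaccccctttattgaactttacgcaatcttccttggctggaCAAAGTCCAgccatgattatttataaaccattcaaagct

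That match occurs in 0.475% of 32851 RefSeq promoters and, among the 41 members that had a promoter in the table, in Slc3a1 alone. It is a description of letters and says nothing of binding.

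Slc3a1 itself (chr17:85335804-85374794, GRCm39, plus strand) reached 213 CPM in the cortical proximal barcodes and 345 CPM in the medullary ones. In TAL it was at 38.6 and 12.5 CPM, so the proximal level was 5.52-fold (4.28 to 7.03) and 27.6-fold (22.4 to 34.0) higher. Its partner Slc7a9 (b0,+AT), the light chain of the same system, was at 185 and 168 CPM in proximal barcodes and at 42.5 and 8.65 CPM in TAL. Without nuclei that held Lrp2 or Cubn counts, Slc3a1 in TAL fell to 4.36 CPM (cortex) and 5.04 CPM (medulla), and Slc7a9 to 6.90 and 1.98 CPM.

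Slc7a13 (AGT1), a second light chain of rBAT in the later proximal tubule that carries aspartate, glutamate and cystine, was the member with the most counts in proximal barcodes, 285 in cortex and 865 in medulla. Its level there was 799 CPM (709 to 897) for cortex and 1915 CPM (1789 to 2047) for medulla, against 106 and 37.9 CPM in TAL. In TAL nuclei with 0 Lrp2 + Cubn counts 7.71 and 5.55 CPM remained, or 7.27% and 14.6% of the level in all TAL nuclei.

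Several sodium-coupled carriers of the Slc6a family were on the same side. Slc6a19 (B0AT1), the main apical carrier of neutral amino acids, was 3.26-fold (2.48 to 4.22) and 14.0-fold (10.2 to 18.9) higher in proximal than in TAL nuclei of cortex and medulla. Slc6a18 (B0AT3), its relative in the later proximal tubule, was 4.87-fold and 58.1-fold higher. Slc6a20b, one of the pair of mouse Slc6a20 genes, was 5.03-fold and 39.1-fold higher, and Slc6a20a 6.69-fold and 33.2-fold. Slc6a13 (GAT2), a GABA and taurine carrier, was 7.07-fold and 29.4-fold higher. In TAL nuclei with 0 Lrp2 + Cubn counts these 5 genes kept 4.78% to 19.4% of their TAL level in cortex and 6.42% to 30.2% in medulla.

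Slc7a7 (y+LAT1), the basolateral exchanger that exports dibasic amino acids with Slc3a2, was at 364 and 250 CPM in proximal barcodes against 92.2 and 17.9 CPM in TAL. It kept 11.3% and 34.7% of that TAL level in nuclei with 0 Lrp2 + Cubn counts. Slc7a7 overlaps Oxa1l on the opposite strand, as Slc3a1 overlaps Prepl, and whether reads were counted by strand was not stated, so reads of each pair may not be separable.

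A few genes of the set kept a larger part of their TAL level in nuclei with 0 Lrp2 + Cubn counts. Slc7a8 (LAT2), the basolateral exchanger of neutral amino acids (chr14:54959630-55019649, GRCm39, minus strand), was at 331 and 164 CPM in proximal barcodes and at 142 and 55.4 CPM in TAL, a difference of 2.33-fold (1.92 to 2.80) and 2.96-fold (2.30 to 3.74). In TAL nuclei with 0 Lrp2 + Cubn counts 83.8 CPM (78.2 to 89.7) and 46.6 CPM (43.5 to 49.9) remained, 59.0% and 84.1% of the level in all TAL nuclei. Slc1a1 (EAAT3), the apical glutamate and aspartate carrier, kept 49.8 and 14.2 CPM, or 44.1% and 47.3%. Slc36a1 (PAT1), a proton-coupled carrier of small neutral amino acids at lysosomes and brush borders, kept 14.6 and 14.4 CPM, or 36.04% and 76.8%. The proximal markers kept less than these 3 genes did in either library, a median of 7.36% and at most 21.4% in cortex, and a median of 14.9% and at most 37.2% in medulla. Slc38a3 (64.6% and 40.3%, on 41 and 27 counts) also kept more than they did, and Slc3a1 did in medulla (40.3%). The empty barcodes held 124 CPM (cortex) and 40.8 CPM (medulla) of Slc7a8, 111 and 43.7 CPM of Slc1a1, and 47.8 and 33.5 CPM of Slc36a1. The part of this free RNA in the TAL levels was not tested.

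**Figure D2:**
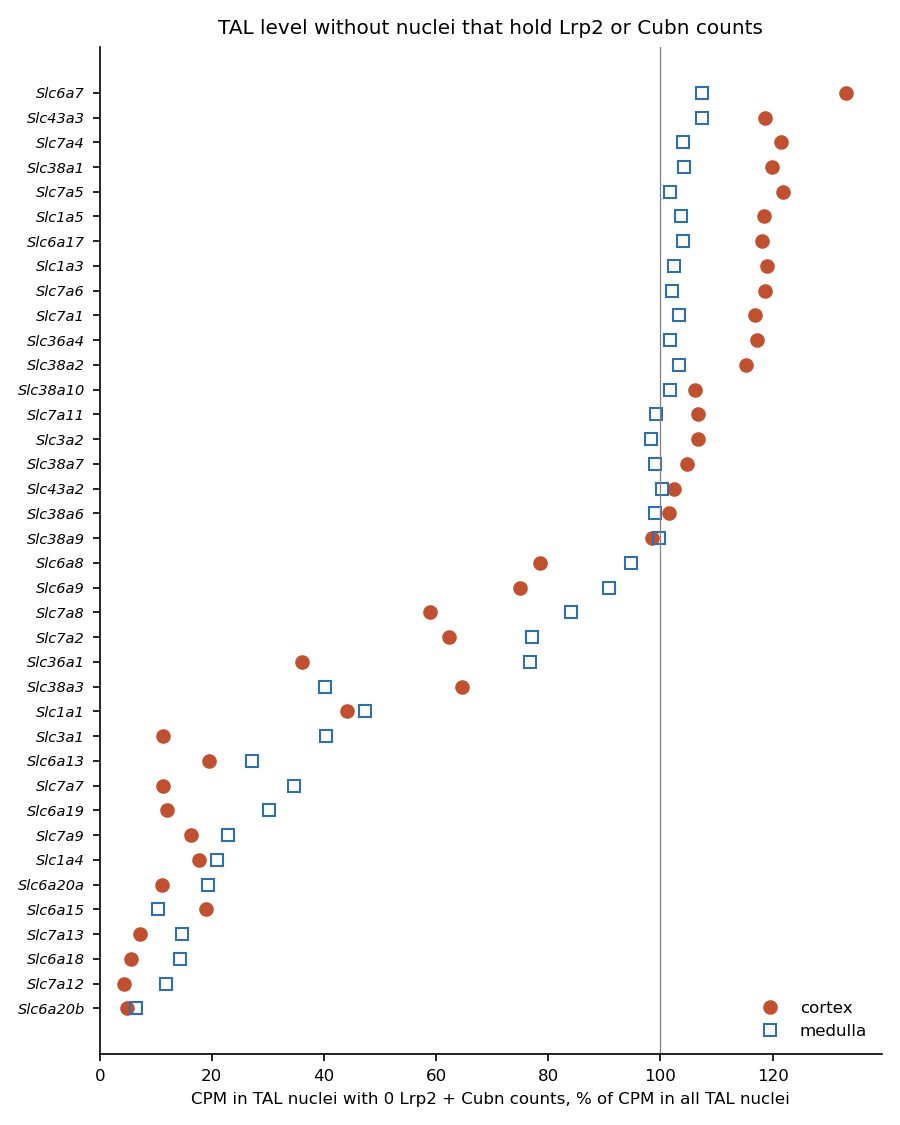
CPM in TAL nuclei with 0 Lrp2 + Cubn counts as a percentage of CPM in all TAL nuclei, for 38 members in cortex (filled circles) and medulla (open squares), with a line at 100%. Slc6a20b kept 4.78% and 6.42%, Slc7a8 59.0% and 84.1%, and the TAL-side members Slc1a5, Slc6a17, Slc38a2 and Slc1a3 were between 102% and 119%.

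Members also differed between the proximal barcodes of the 2 libraries. Slc7a12, a light chain for neutral amino acids, had 2 counts in cortical and 414 in medullary proximal barcodes, 5.61 against 917 CPM. Slc6a15 (B0AT2), a carrier of branched-chain amino acids and proline, had 149 CPM (111 to 194) in cortex against 1441 CPM (1333 to 1556) in medulla, 9.70-fold higher in medulla (7.33 to 13.1). Slc38a3 (SNAT3), the basolateral glutamine carrier, was 7.31-fold higher in medulla (2.62 to 28.2) on 4 and 37 counts. Slc6a18 and Slc7a13 were 4.36-fold and 2.40-fold higher in medulla. In the other direction Slc43a2 was 2.07-fold (1.43 to 3.01) and Slc7a8 2.02-fold (1.497 to 2.74) higher in cortex. These 7 were the calls among 23 members tested, 5 lower and 2 higher in cortex, where 5.84% and 7.12% of 6303 genes were called (13% in all).

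Further members on the proximal side in both libraries were Slc6a15, Slc1a4 (ASCT1), a carrier of alanine, serine and cysteine, Slc7a2 (CAT2), a carrier of cationic amino acids, and the low-count Slc1a2 and Slc38a11. In medulla Slc1a2 was at 1.00 CPM in TAL, 45.3% of the proximal level, and passed 2-fold in 4 of 6 settings. Slc6a15 was at 33.1 and 26.6 CPM in TAL and fell to 6.29 and 2.77 CPM without nuclei that held Lrp2 or Cubn counts. Slc1a4 fell from 5.14 to 0.913 CPM in cortex and from 1.90 to 0.396 CPM in medulla. The creatine transporter Slc6a8, a relative that supplies creatine, was at 66.6 and 44.1 CPM in TAL against 149 and 86.3 CPM in proximal barcodes, called lower in TAL in cortex only, and the difference between the libraries was not tested.

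On the TAL side stood 6 members called higher in both libraries. Slc1a5 (ASCT2), the exchanger that brings in glutamine and other neutral amino acids (chr7:16515265-16532731, GRCm39, plus strand), had a TAL level of 162 CPM (156 to 169) in cortex and of 173 CPM (167 to 179) in medulla, against 16.8 and 11.1 CPM in proximal barcodes. This is a ratio of 9.64 (4.42 to 26.3) for cortex and 15.6 (6.69 to 48.1) for medulla, on 6 and 5 proximal counts. Counts of Slc1a5 were found in 33.4% of cortical and 32.4% of medullary TAL nuclei, and in 8.82% and 4.26% of the deeper proximal barcodes.

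Slc6a17 (NTT4), known as a vesicular carrier of neutral amino acids in neurons, was at 85.5 and 168 CPM in TAL and at 5.61 and 6.64 CPM in proximal barcodes, which held 2 and 3 counts. Its ratios were 15.3 (4.21 to 126) and 25.4 (8.67 to 123). Slc38a2 (SNAT2), the sodium-coupled carrier of small neutral amino acids that cultured cells induce under amino acid lack and hypertonic stress, was at 88.6 and 267 CPM in TAL against 22.4 and 35.4 CPM. Slc1a3 (EAAT1), a glutamate and aspartate carrier best known from astrocytes, was at 43.1 and 30.2 CPM in TAL against 5.61 and 4.43 CPM, with 2 proximal counts in each library.

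Carriers of cationic amino acids completed this side. Slc7a1 (CAT1), the general carrier of arginine and lysine, was at 28.3 and 19.99 CPM in TAL, with 0 counts in cortical and 1 in medullary proximal barcodes. At a limit of 3 counts for a count of 0, it was at least 3.37-fold higher in cortical TAL. Slc7a6 (y+LAT2), a partner of Slc3a2, was at 17.9 and 18.1 CPM with 0 proximal counts in either library, at least 2.13-fold and 2.72-fold higher. In TAL nuclei with 0 Lrp2 + Cubn counts these 6 members were at 102% to 119% of their level in all TAL nuclei. This filter takes proximal transcripts out of the total, so genes that it spares rise in CPM. Slc36a4 (117%), not called, and Slc43a3 (119%), called lower in TAL, rose likewise in cortex. The rise is therefore no evidence for the TAL side. Within 1500 to 4000 counts Slc1a3, Slc7a1 and Slc7a6 were not called in medulla, where 24 proximal barcodes remained. Slc7a1 was at 1.27 in cortex in that setting, and Slc7a6 was not called in cortex with stricter proximal barcodes. Slc1a5, Slc6a17 and Slc38a2 passed 2-fold in 14 of 14 settings in both libraries.

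Other members were called higher in TAL in 1 library. Slc38a1 (SNAT1), a glutamine carrier, was at 31.6 against 4.43 CPM in medulla and at 11.0 CPM against 0 counts in cortex. Slc43a2 (LAT4), a facilitated carrier of branched-chain and aromatic amino acids and the member with the most TAL counts, 9862, was 2.56-fold higher in medulla and 1.48-fold in cortex. Within nuclei of 1500 to 4000 counts that ratio turned to 0.872 in medulla. Slc38a10 was 3.15-fold (1.65 to 6.90) higher in medulla and 1.56-fold (0.925 to 2.87) in cortex. Slc3a2, the heavy chain 4F2hc, was 2.11-fold (1.10 to 4.63) higher in cortex and 1.16-fold (0.671 to 2.18) in medulla. Slc7a11 in medulla and Slc6a7 in cortex rested on 1 proximal count each. Slc38a7, Slc36a4, Slc7a4 and Slc7a5 were not called in either library, the last 2 with 0 proximal counts. Lower in TAL in 1 library were Slc43a3 in cortex, on 7 proximal counts, and Slc6a9, Slc6a4 and Slc7a3 in medulla, on 8, 2 and 1. Levels of the lysosomal arginine sensor Slc38a9 and of Slc38a6 differed little, with ratios of 0.904 and 0.969 and of 0.936 and 0.722.

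**Figure D3:**
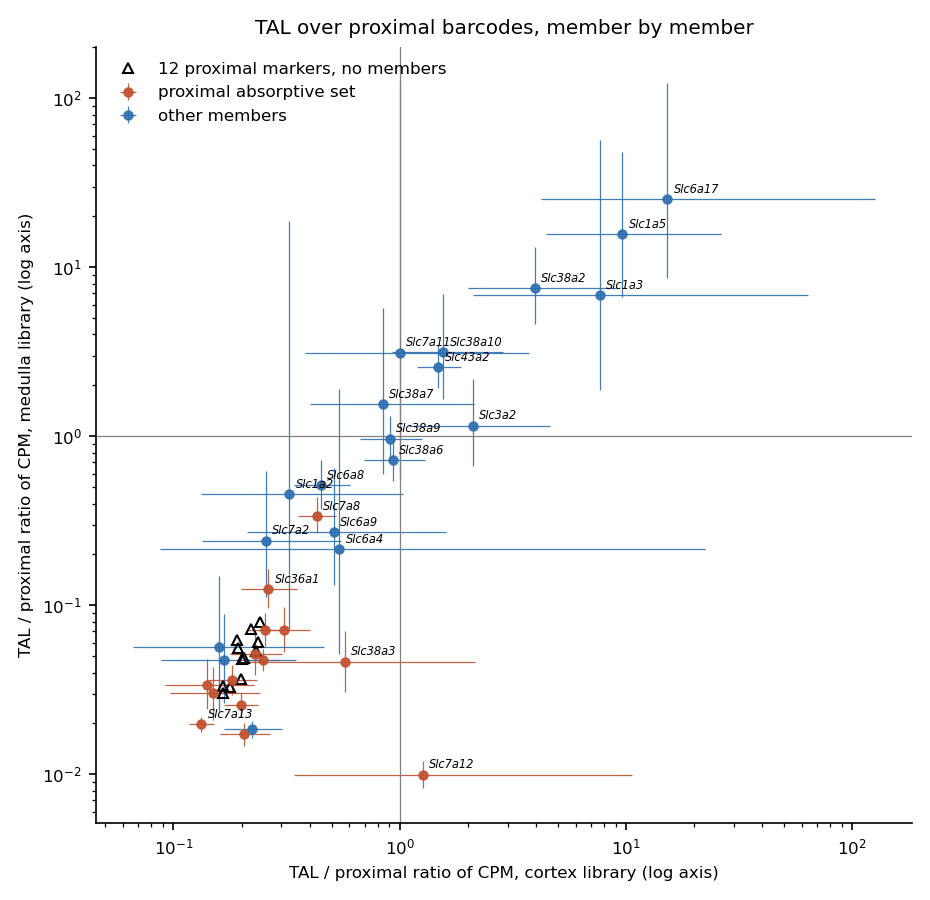
Ratio of CPM in TAL to CPM in proximal barcodes, cortex on the x axis and medulla on the y axis (both log axes), with 95% counting intervals, for members with at least 20 counts and no 0 in both libraries. Of the proximal set (orange), Slc3a1 and Slc7a9 lie within the range of the 12 proximal markers (open triangles) in both libraries. Slc7a8 and Slc36a1 lie above that range in both, and Slc7a13 and Slc6a20a below it in both. The rest leave it in at least 1 library, such as Slc7a12 at 126.5% of the proximal level in cortex and 0.995% in medulla. Slc1a5, Slc6a17, Slc38a2 and Slc1a3 (blue) lie at 3.95 or more in both libraries.

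Macula densa nuclei were compared with the other TAL classes. Against TAL-α and TAL-β together, 8 of 45 members were higher and 4 lower in cortex, where 8.17% and 9.37% of 14819 genes were called (17.5% in all), and 7 of 37 were higher and 5 lower in medulla, where 16.9% and 9.54% were called (26.5% in all). The shares of members called higher, 17.8% and 18.9%, stood above the background in cortex and close to it in medulla, where 73 MD nuclei were present and where scaling by the median gene would lower every log2 ratio by 0.34. Called higher in both libraries were Slc6a7, Slc7a4, Slc7a11, Slc1a3 and Slc7a5, and called lower in both was Slc43a2. For this overlap, too, the share of all genes is not given.

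Slc6a7 (PROT), the high-affinity proline carrier known from the brain, differed by far the most. It had 66 counts in cortical MD nuclei against 32 in the far larger TAL-α and TAL-β classes, 50.2 CPM (38.8 to 63.9) against 2.72 CPM, a ratio of 18.5 (11.9 to 29.1). In medulla it had 13 counts in MD against 14, 88.4 CPM (47.1 to 151) against 1.33 CPM, a ratio of 66.4 (28.8 to 152). The other classes were at 0.241 to 2.80 CPM or at 0 counts, and the empty barcodes held 7.90 (cortex) and 0.972 CPM (medulla). Of cortical MD nuclei 9.43% (7.20% to 12.1%) held a Slc6a7 count, against 0.775% of TAL-α nuclei and 1.47% of proximal barcodes, although MD nuclei were shallower (median 1836.5 against 2415 and 3711 counts). After thinning each nucleus to 1000 counts the shares were 5.22% in MD and 0.258% in TAL-α. In nuclei with 0 Lrp2 + Cubn counts the ratios were 16.6 and 66.3.

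Slc7a11 (xCT), the light chain of the exchanger that brings in cystine for glutathione synthesis, reached 25.1 CPM in MD of cortex and 40.8 CPM in MD of medulla, on 33 and 6 counts. TAL-α and TAL-β together were at 9.94 and 7.22 CPM, so the ratio was 2.53 (1.66 to 3.74) and 5.65 (2.01 to 12.9). Its promoter is shown because xCT is a known target of the amino acid response, which acts through ATF4. The 250 bases before the start lie at chr3:50443614-50443863 on the minus strand of GRCm38.p6 in RefSeq, and capitals mark the 2 matches to the ATF4/CHOP element TGATGCAA, one on each strand.

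Slc7a11: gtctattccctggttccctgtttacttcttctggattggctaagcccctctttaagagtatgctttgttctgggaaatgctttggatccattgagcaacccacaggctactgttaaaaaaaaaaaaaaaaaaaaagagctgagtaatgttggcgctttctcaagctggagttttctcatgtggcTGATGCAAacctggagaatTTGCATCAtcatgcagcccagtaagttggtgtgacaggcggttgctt

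The letters occur in 0.895% of 32851 RefSeq promoters of 300 bases and, among the 41 members with a promoter in the table, in Slc1a4, Slc7a11 and Slc7a7. These 3 did not share a pattern: Slc1a4 and Slc7a7 were on the proximal side and neither was called higher in MD in cortex.

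Slc7a4, an orphan relative of the cationic carriers, was at 26.6 CPM (18.5 to 37.0) in cortical MD against 7.05 CPM, a ratio of 3.78 (2.47 to 5.67). In medulla the 2 MD counts gave 13.6 against 2.38 CPM with an interval of the ratio from 0.657 to 23.0. Slc7a4 overlaps P2rx6 on the opposite strand. Slc1a3 was at 96.6 and 116 CPM in MD against 38.1 and 36.8 CPM, ratios of 2.54 (2.07 to 3.10) and 3.14 (1.81 to 5.10). Slc7a5 (LAT1), the light chain that exchanges glutamine for leucine, was 2.90-fold (1.32 to 5.85) and 3.90-fold (0.781 to 12.0) higher on 11 and 3 MD counts.

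Some calls were made in 1 library. Slc38a2 was at 184 CPM (162 to 209) in cortical MD against 77.0 CPM, a ratio of 2.39 (2.07 to 2.76). In medulla it was at 224 against 217 CPM, a ratio of 1.04 (0.711 to 1.46), and TAL-α alone was at 233 CPM there. Slc6a9 (GLYT1), a glycine carrier, and Slc38a4 were higher in cortical MD on 17 and 6 counts. Slc3a2 was 2.53-fold (1.33 to 4.38) higher in medullary MD and 1.01-fold (0.778 to 1.29) in cortical MD. Slc6a19 was called in medullary MD on 5 counts, of which 0 remained in nuclei with 0 Lrp2 + Cubn counts. In those nuclei 9 of 36 members were higher and 7 lower in cortical MD, against 9.44% and 11.3% of 13668 genes.

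Slc43a2 was lower in MD in both libraries, at 137 and 136 CPM against 352 and 299 CPM, ratios of 0.389 (0.333 to 0.452) and 0.455 (0.277 to 0.704). Slc1a5 was at 89.0 against 169 CPM in cortex (0.526, 0.433 to 0.634) and at 143 against 181 CPM in medulla (0.787, 0.486 to 1.21), and in nuclei with 0 Lrp2 + Cubn counts the cortical ratio of 0.496 (0.403 to 0.604) was called. Slc6a17 was at 50.2 against 89.3 CPM in cortex and at 68.0 against 165 CPM in medulla, the latter called lower. The remaining lower calls rested on at most 3 MD counts each (Slc1a4, Slc6a4 and Slc6a14 in cortex, Slc38a10, Slc6a15 and Slc7a13 in medulla). Beside these values, Slc12a3 and Trpm6, markers of the distal convoluted tubule, summed to 188 CPM in cortical MD, and their part was not tested.

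**Figure D4:**
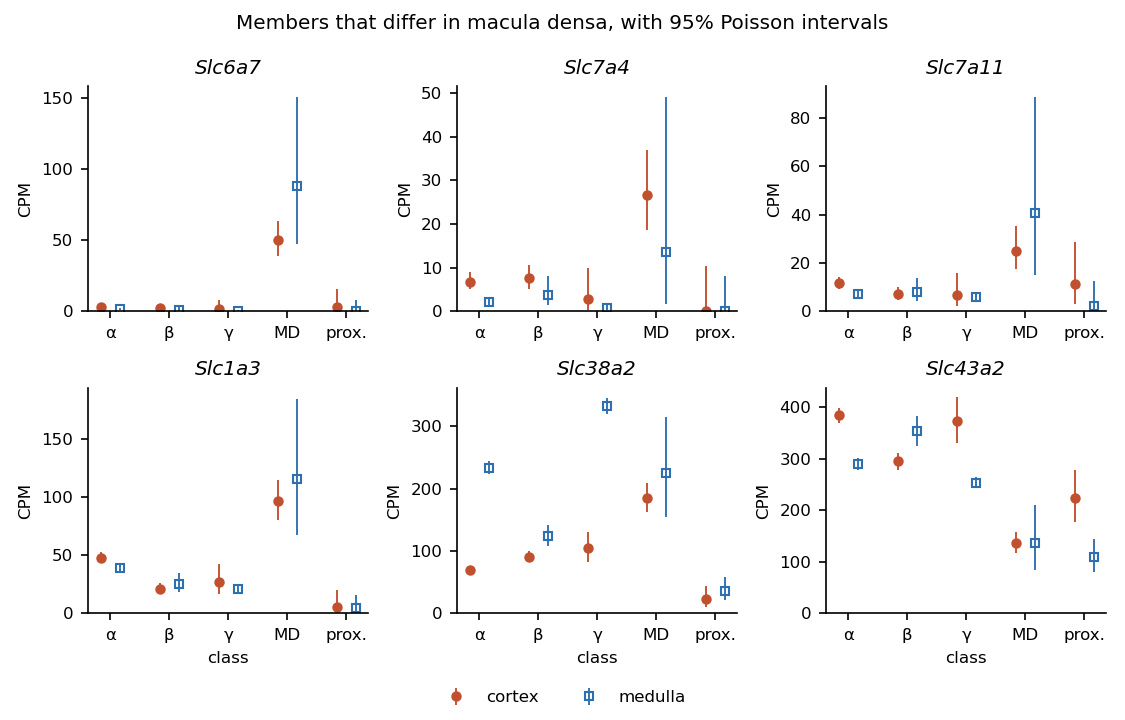
CPM of 6 members in TAL-α, TAL-β, TAL-γ (in cortex the gate γ), MD and proximal barcodes of cortex (filled circles) and medulla (open squares), with 95% Poisson intervals and y axes from 0. Slc6a7 stands at 50.2 and 88.4 CPM in MD and at or below 2.80 CPM elsewhere, and Slc43a2 at 137 and 136 CPM in MD, below every other TAL class.

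TAL-α and TAL-β differed in few members. In cortex 2 of 43 were higher in TAL-α and 1 lower, against 2.81% and 3.1% of 14467 genes (5.91% in either direction), and in medulla 1 of 36 was higher and 1 lower, against 5% and 3.46% of 13371 (8.46% in either direction). In all nuclei none was called in both libraries. These shares were near the background, so the counts are no result about these families. Without nuclei that held Lrp2 or Cubn counts, 2 of 35 members were higher in TAL-α and 4 lower in cortex. The background there was 3.34% and 3.72% of 13253 genes. In medulla 2 of 31 were then higher and 1 lower, against 5.61% and 3.51% of 12954. The share lower in cortex stood furthest above its background, on 4 members. Slc1a1 was then called lower in TAL-α in both libraries.

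Slc1a1 (chr19:28812449-28891360, GRCm39, plus strand) was on the TAL-β side in both libraries. It was at 155 CPM (143 to 167) in TAL-β and 95.5 CPM (88.7 to 103) in TAL-α of cortex, and at 66.6 CPM (54.6 to 80.4) and 27.6 CPM (24.2 to 31.3) in medulla. TAL-β was 1.62-fold (1.46 to 1.81) and 2.41-fold (1.90 to 3.04) higher, and only the medullary ratio was called. In nuclei with 0 Lrp2 + Cubn counts the levels fell and the difference grew. TAL-β was then at 87.3 CPM against 36.4 CPM in cortex, 2.40-fold (1.98 to 2.90), and at 50.9 against 13.5 CPM in medulla, 3.76-fold (2.77 to 5.09). A count was found in 25.5% of TAL-β and 14.4% of TAL-α nuclei in cortex, and in 13.3% and 3.92% in medulla.

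With classes set by Cldn10, Cldn16 and Kcnj10 instead, the cortical TAL-α to TAL-β ratio of Slc1a1 was 2.07, the opposite direction. Cldn10 was at 420 and 414 CPM in proximal barcodes, above its level in any TAL class. With those classes and 0 Lrp2 + Cubn counts together, the ratio was 0.378 in cortex and 0.157 in medulla, on the TAL-β side again. The distal convoluted tubule markers Slc12a3 and Trpm6 summed to 331 CPM in TAL-β and 72.4 CPM in TAL-α of cortex, and to 182 and 5.16 CPM in medulla. Their part in the Slc1a1 difference was not tested, and Slc1a1 overlaps Spata6l on the opposite strand.

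Slc1a3 was on the TAL-α side, at 47.7 CPM (TAL-α) and 21.0 CPM (TAL-β) in cortex, a ratio of 2.27 (1.80 to 2.90), and at 38.8 and 25.5 CPM in medulla, a ratio of 1.52 (1.10 to 2.16). Slc6a17 was 1.76-fold (1.53 to 2.03) and 1.74-fold (1.48 to 2.06) higher in TAL-α, and Slc38a1 1.91-fold (1.22 to 3.08) and 1.97-fold (1.31 to 3.10). None of these but Slc1a3 in cortex reached 2-fold. The other calls rested on few counts or on the proximal set: Slc6a14, higher in cortical TAL-α on 17 against 3 counts, Slc7a12, lower there on 39 against 44, and Slc7a5, higher in medullary TAL-α on 51 against 4.

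Medullary TAL-γ was compared with TAL-α and TAL-β of the same library. Against TAL-α 2 of 38 members were higher and 2 lower, where 1.47% and 3.14% of 14657 genes were called (4.61% in either direction). The clearest was Slc7a8, at 34.0 CPM (30.2 to 38.2) in TAL-γ and 68.5 CPM (63.2 to 74.2) in TAL-α, a ratio of 0.496 (0.430 to 0.573). Without nuclei that held Lrp2 or Cubn counts it was 0.465 (0.395 to 0.547). Slc1a3 fell just short of the call at 20.4 against 38.8 CPM (0.525, 0.435 to 0.633). Slc7a4 was called lower on 6 against 19 counts and Slc1a4 higher on 21 against 11. Slc7a12, called higher on 108 against 54 counts, turned to 0.385 in nuclei of 1500 to 4000 counts. With 0 Lrp2 + Cubn counts 0 of 33 members were higher and 4 lower in TAL-γ, against 1.45% and 3.49% of 14255 genes. Slc1a4 then had 2 against 5 counts and Slc7a12 6 against 13, both on the TAL-α side.

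Against TAL-β, TAL-γ had 2 of 35 members higher and 3 lower, against 5.52% and 5.49% of 13180 genes (11% in either direction). Slc38a2 was at 332 CPM (320 to 345) in TAL-γ and 124 CPM (107 to 142) in TAL-β, 2.69-fold higher (2.32 to 3.12). Slc38a1 was at 35.8 and 15.6 CPM, 2.30-fold higher (1.53 to 3.62). Slc1a1 and Slc7a8 were lower in TAL-γ, at 0.388 (0.306 to 0.494) and 0.393 (0.320 to 0.486) of the TAL-β level, and Slc38a3 was called lower on 24 against 10 counts. Without nuclei that held Lrp2 or Cubn counts the Slc1a1 ratio was 0.155 (0.109 to 0.221).

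Cortex and medulla were then compared within a class. In TAL-α 15 of 44 members were higher in cortex and 2 lower, against 11% and 2.09% of 15002 genes (13.1% in all), and in TAL-β 16 of 37 were higher and 1 lower, against 11.3% and 1.17% of 12448 (12.5% in all). In MD 8 of 28 were higher and 1 lower, against 12.6% and 3.74% of 8802 (16.4% in all). Of the proximal set, 10 of 14 were higher in cortex in either class. The proximal markers moved with them, since their level in TAL-α was 18.7% of the proximal level in cortex and 4.84% in medulla. In nuclei with 0 Lrp2 + Cubn counts 8 of 38 members were higher in cortex and 2 lower in TAL-α, against 8.01% and 2.24% of 14215 genes, and 5 of 28 were higher and 1 lower in TAL-β, against 7.23% and 1.14% of 11333. Slc3a1 went from 2.79-fold higher in cortical TAL-α to 0.887-fold (0.512 to 1.503), and Slc7a7 from 5.86-fold to 1.64-fold (1.08 to 2.50). Slc6a20b (2.84-fold, 1.13 to 7.73), Slc6a19 (2.74-fold, 1.57 to 4.92) and Slc7a9 (2.65-fold, 1.57 to 4.58) were still called higher in cortical TAL-α, on 8 to 42 counts per library. Proximal markers remained there too, a median of 8.23% of their TAL-α level in cortex and 17.8% in medulla. Those levels summed to 4520 and 838 CPM, and their part in the 3 ratios was not tested. Free RNA was also subtracted from all nuclei, at the share that takes every proximal marker count in TAL nuclei as free RNA. That assumption was not tested. With this subtraction Slc6a19 was not called, Slc7a9 was at 0.180 and Slc6a20b at 19.8. Over the members, 9 were then higher and 7 lower in cortex in TAL-α, and 10 and 9 in TAL-β.

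Higher in cortical TAL-α in those nuclei as well was Slc1a1, at 36.4 against 13.5 CPM, 2.69-fold (2.13 to 3.42). The remaining calls there were outside the proximal set. They were Slc7a4 (7.98 against 2.27 CPM), Slc43a3 (5.62 against 1.56 CPM), Slc6a15 (4.35 against 2.15 CPM) and Slc6a7 (3.63 against 1.56 CPM). Slc7a4 and Slc43a3 were also called higher in cortical TAL-β in those nuclei. Slc7a8 was at 96.6 against 60.1 CPM, 1.61-fold (1.42 to 1.82), after 2.24-fold (2.03 to 2.47) in all nuclei. In TAL-β the same Slc7a8 levels were 62.8 and 61.9 CPM, a ratio of 1.02 (0.783 to 1.32).

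The largest difference towards medulla in TAL-α was that of Slc38a2 (chr15:96585266-96597894, GRCm39, minus strand). In TAL-α its level was 69.2 CPM (63.4 to 75.4) in cortex against 233 CPM (224 to 244) in medulla, 3.37-fold higher in medulla (3.06 to 3.72). A count was found in 16.2% (14.8% to 17.6%) of cortical and 39.6% (37.98% to 41.2%) of medullary TAL-α nuclei, at nearly equal median depth (2415 and 2396.5 counts). In TAL-β the levels were 90.8 and 124 CPM, 1.36-fold higher in medulla (1.14 to 1.62), and in MD 184 and 224 CPM. Slc38a2 thus ranged from 69.2 CPM in cortical TAL-α to 332 CPM in medullary TAL-γ, with MD of both libraries and medullary TAL-α between them. The empty barcodes held 85.8 CPM of Slc38a2 in cortex and 259 CPM in medulla. With free RNA subtracted at the share that takes all proximal marker counts as free RNA, Slc38a2 was 7.14-fold higher in medullary TAL-α. Without subtraction the difference was 3.37-fold.

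Slc38a1, its neighbour on chromosome 15 (chr15:96469298-96541851, GRCm39, minus strand), was also higher in medulla, 2.62-fold (2.05 to 3.37) in TAL-α and 2.54-fold (1.41 to 4.57) in TAL-β. It was the only member called lower in cortex in both classes. Slc6a17 was 1.67-fold (1.53 to 1.82) higher in medullary TAL-α. The empty barcodes held 8.65 CPM of Slc38a1 in cortex and 35.5 CPM in medulla, and 71.1 and 154 CPM of Slc6a17. With this free RNA subtracted at the same assumed share, the Slc38a1 difference was 1.57-fold in TAL-α and was called in neither class. Whether free RNA made up that share was not tested. The part of free RNA in the Slc6a17 difference was not tested. Slc1a5 differed little in TAL-α, at 173 and 172 CPM. In nuclei with 0 Lrp2 + Cubn counts Slc38a2 was 3.17-fold (2.85 to 3.53) and Slc38a1 2.32-fold (1.78 to 3.03) higher in medullary TAL-α. Region and library cannot be told apart, since each region was 1 library.

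**Figure D5:**
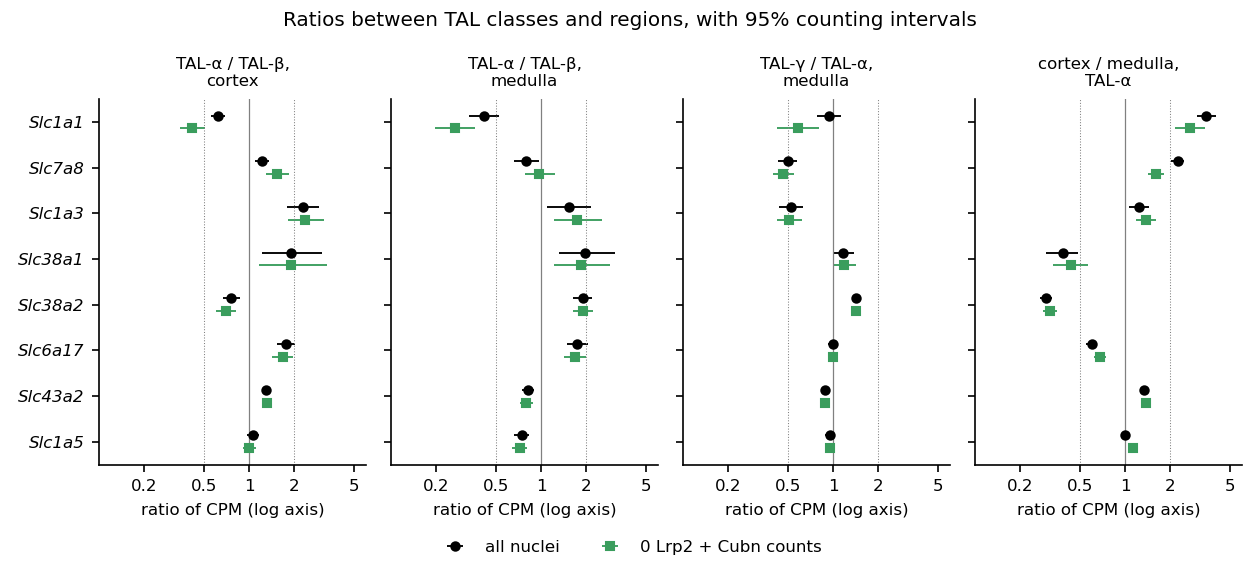
Ratio of CPM for 8 members in 4 comparisons (log axes), in all nuclei (black circles) and in nuclei with 0 Lrp2 + Cubn counts (green squares), with 95% counting intervals and dotted lines at 0.5 and 2. The Slc1a1 ratio of TAL-α to TAL-β moves further from 1 without nuclei that held Lrp2 or Cubn counts, and Slc38a2 stays near 0.3 between cortex and medulla in TAL-α.

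Genes that handle amino acids outside these families were taken from a list of 32, chosen as the members were. In TAL against proximal barcodes 3 of 30 tested were higher and 12 lower in cortex, and 4 of 29 higher and 13 lower in medulla. Among those higher in TAL in both libraries were Slc25a12, the mitochondrial aspartate and glutamate carrier (3.02-fold and 4.46-fold) and Bcat2, the mitochondrial branched-chain aminotransferase (2.89-fold and 2.76-fold). Got1, the cytosolic aspartate aminotransferase, was 7.09-fold higher in medulla (3.43 to 17.6). Among those lower in TAL were Cltrn (collectrin), a partner that carries Slc6a19 to the membrane, and Glul, which makes glutamine.

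Between TAL classes the list differed by comparison. In cortex 0 of 29 were called between TAL-α and TAL-β, where 855 of 14467 genes were called, and 0 of 29 between TAL-γ and TAL-α in medulla. In medulla 2 of 28 were higher and 2 lower in TAL-α than in TAL-β, and 2 of 26 were higher and 3 lower in TAL-γ than in TAL-β. There Ggt1, the enzyme that breaks down extracellular glutathione, was 3.15-fold higher in TAL-β than in TAL-α. In cortical MD 5 of 29 were lower and 0 higher, among them Got1 (12.9 against 61.3 CPM, a ratio of 0.211, 0.122 to 0.340) and Ggt1 (81.4 against 355 CPM, a ratio of 0.229, 0.188 to 0.278). In medullary MD 3 of 28 were higher and 6 lower. The shares over all genes are those given above for each comparison. Between the regions 9 of 30 were higher in cortical TAL-α and 0 lower, against 11% and 2.09% of all genes. The proximal markers moved the same way, and with 0 Lrp2 + Cubn counts 4 of 29 were higher and 2 lower.

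The other members were sparse. Of the 58, 20 had fewer than 100 counts over the TAL classes of both libraries, from 3 for Slc36a2 to 82 for Slc1a2, and 7 of these had fewer than 20. They include neurotransmitter carriers such as Slc6a2, Slc6a3 and Slc6a11 and the glycine carrier Slc6a5. Most of them were called in no comparison. Slc1a2 and Slc38a11 were called lower in TAL than in proximal barcodes and higher in cortical than in medullary TAL-α, and Slc6a4, Slc6a14, Slc7a3 and Slc38a4 had calls that rested on at most 6 counts in 1 of the groups compared.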

How the data were processed

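Unique molecule counts per gene and barcode were deposited by the authors as filtered PIPseeker matrices aligned to GRCm39, and they are used as raw counts. The submitters' processing notes also name bcl2fastq and Seurat 4.4.0. The cortical library held 5442 barcodes and 16457300 counts, the medullary one 8121 and 20947211. The filter on barcodes was a minimum of 500 genes and a maximum of 5% for mitochondrial counts, and Scrublet doublets were removed per library (scanpy 1.11.5, seed 1). The caller marked 0.0246% of medullary barcodes, so the top 5% by doublet score, 406 barcodes, were removed there and 359 by its own threshold in cortex. This left 5083 and 7714 nuclei.

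Counts were summed per library and class and scaled to a total of 1000000 (CPM). Levels carry exact Poisson intervals, shares exact Clopper-Pearson intervals and ratios conditional binomial intervals (95%, Python 3.11.15, numpy 2.4.6, scipy 1.17.1, pandas 2.3.3). A class at 0 counts was set to 3 counts for a bound. No p-value was computed. The calculation was tested on simulated data. Members with at least 100 TAL counts, those of the proximal set and those called in both libraries, in TAL-γ against TAL-α or in MD are named, and the rest are given by counts. Members, lists and tests were chosen with earlier results of these data known. Coordinates are from GENCODE M39, which matched 58 members. Of these, 19 overlap another counted gene on the opposite strand. Promoters are from RefSeq. Alternatives tried were 11 planned and 3 chosen after seeing the data. Results on some listed genes are not reported here. The share of free RNA in each class was estimated as the median, over the 12 proximal markers, of the level in TAL nuclei over that in empty barcodes (at most 100 counts). It takes all proximal marker counts in TAL nuclei as free RNA, so it is too high if some had another source. Ambient subtraction used this share.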

Additional observations from a re-analysis of the deposited data

Results flagged for a closer look

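Of the members named in full, 3 had a TAL-α to TAL-β ratio on opposite sides of 1 in the cortical and medullary libraries, with counting intervals that left out 1 in both. The difference between the libraries was not tested. Slc38a2 was at 0.762 (0.667 to 0.872) in cortex and 1.89 (1.63 to 2.19) in medulla. Slc43a2 was at 1.30 (1.22 to 1.39) in cortex and 0.818 (0.747 to 0.898) in medulla. Slc7a8 was at 1.22 (1.10 to 1.35) in cortex and 0.792 (0.658 to 0.960) in medulla. None of these ratios reached 2-fold. In nuclei with 0 Lrp2 + Cubn counts the Slc7a8 ratios were 1.54 and 0.971, so that the medullary one was then near 1.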

How the results depend on the processing

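No paired analysis was possible because each region was 1 library, and for the same reason no replicate could be left out. Over all alternatives, 82 of the counts of members called in a comparison stayed within 1.5 times the original count and 24 did not. Of 12 comparisons, the 8 listed in the plan are counted here.

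The count between TAL-γ and TAL-α (4) was 2 with all barcodes, with doublets kept and with at least 50 counts, 13 with claudin and Kcnj10 classes and 12 after ambient subtraction. Between TAL-α and TAL-β in cortex (3) it was 5 with Slc12a1 of at least 20, with stricter class markers and within 1500 to 4000 counts, 16 with claudin classes, 23 after ambient subtraction and 6 with 0 Lrp2 + Cubn counts. In medulla (2) it was 6 with stricter markers, 14 with claudin classes, 13 after ambient subtraction and 5 with claudin classes and 0 Lrp2 + Cubn counts. For MD in cortex (12) it was 19 after ambient subtraction and 20 within 1500 to 4000 counts. For TAL against proximal in medulla (32) it was 21 within 1500 to 4000 counts. Between regions in TAL-β (17) it was 1 with claudin classes, with or without 0 Lrp2 + Cubn counts, 9 within 1500 to 4000 counts and 6 with 0 Lrp2 + Cubn counts. In TAL-α (17) it was 10 with 0 Lrp2 + Cubn counts and 8 with claudin classes as well. These counts add both directions, so a stable count can hide a shift between them. After ambient subtraction the count between regions in TAL-α was 16, with 9 higher and 7 lower in cortex against 15 and 2 originally. In TAL-β it was 19, with 10 higher and 9 lower against 16 and 1.

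Single ratios that were called changed direction 19 times under an alternative, some of them under several alternatives. With claudin classes these were Slc7a12 between TAL-α and TAL-β in cortex (2.13) and Slc1a1 between TAL-γ and TAL-β (1.75). After ambient subtraction the cortex to medulla ratio turned for Slc7a9 in TAL-α (0.180) and TAL-β (0.299) and for Slc7a7 in TAL-β (0.133) and MD (0.895). With nuclei weighted equally Slc6a4 in cortical MD was 1.01. Within 1500 to 4000 counts Slc7a12 between TAL-γ and TAL-α was 0.385, Slc6a15 and Slc7a13 in medullary MD were 2.11 and 1.32, and Slc43a2 between medullary TAL and proximal barcodes was 0.872. With 0 Lrp2 + Cubn counts Slc6a15 and Slc7a13 in medullary MD were 2.97 and 1.40, Slc3a1 between regions was 0.887 in TAL-α and 0.968 in TAL-β, and Slc36a1 in TAL-β was 0.983. With claudin classes as well, Slc7a13 in medullary MD was 1.07, and Slc7a7 and Slc3a1 between regions in TAL-α were 0.922 and 0.741. The cause was not tested. The alternatives without Lrp2 or Cubn counts and the one with at least 10 counts in the higher class were chosen after seeing the data.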
